A study of Mus musculus with 16 samples.

Results

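The 10 genes described here, which mark or control the epithelial and the mesenchymal state of cells, were followed in mouse embryonic stem cells with and without a hairpin RNA against Sirt1 and with and without retinoic acid (RA). They were Grhl2, Cdh1, Cldn4, Cldn6 and Cldn7 on the epithelial side, and Cdh2, Vim, Snai1, Snai2 and Zeb2 on the mesenchymal side. They were taken by gene name, with no threshold on a measured value. The 10 genes were read by 18 of the 41174 probes, 12 of which were bright enough to be tested, and every gene kept at least 1 probe among the 18282 genes tested. Zeb2 is listed under its older name, Zfhx1b.

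The cells were of the line E14, established embryonic stem cells of the mouse, and stably expressed a short hairpin from a lentiviral vector. The groups were sh-SIRT1 cells under 20 nM RA for 2 days (n = 6 arrays), sh-Control cells under the same RA (n = 4), sh-SIRT1 cells in ethanol vehicle (n = 3) and sh-Control cells in ethanol vehicle (n = 3). All 4 groups grew in serum medium with the cytokine LIF, which holds such cells undifferentiated, so RA acted in its presence. The isomer of RA, and whether a line is 1 clone or a pool, are not given in the sources used here. By the labels each hairpin was a single line, so an effect of the hairpin and the history of a line cannot be told apart. RA arrays may include duplicates of the same cells, which the labels do not mark, so p-values measure the spread between arrays, part of which may be technical.

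Epithelial cells hold together through E-cadherin, the product of Cdh1, and seal the gaps between them with tight junctions built from claudins. Grhl2 encodes Grainyhead-like 2, a transcription factor that activates Cdh1 and claudin genes in epithelia. Snai1, Snai2 and Zeb2 encode zinc finger repressors that bind E-boxes, short DNA motifs, and switch such genes off in the epithelial-mesenchymal transition (EMT), in which cells exchange E-cadherin for N-cadherin (Cdh2) and raise the intermediate filament protein vimentin (Vim). Embryonic stem cells express E-cadherin, and RA drives them to differentiate.

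Probes and promoters of the genes are shown first. The comparisons depend on what each probe reads, while the promoter motifs were not used in any comparison. Grhl2 had 3 probes on chromosome 15, of which chr15:37474056-37474115 (mm7, plus strand, the build of the probe positions) gave the highest signal and stands for the gene below. Exons and untranslated regions under the probes were not analysed here. The other Grhl2 probes lie upstream of it at chr15:37420358-37420417 and chr15:37471448-37471507, and their sequences, 5′ to 3′, are:
Grhl2 A_51_P408821: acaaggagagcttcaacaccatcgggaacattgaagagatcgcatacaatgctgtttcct
Grhl2 A_52_P373982: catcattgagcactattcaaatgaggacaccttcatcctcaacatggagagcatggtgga

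Promoter sequences were found in the RefSeq table (GRCm38.p6) for 6 of the 10 genes, Cldn4, Cldn6, Cldn7, Snai1, Vim and Zeb2, with 10 start sites in all. The 250 bases before each start were searched on both strands for the E-box CAGGTG, a motif that Snail and Zeb proteins bind and that reads CACCTG on the other strand. It was found before 4 of the 10 start sites, those of Cldn4, Cldn6, Snai1 and 1 of the Cldn7 starts, and in 17.2% of the 32851 promoters of the table. The Grainyhead-like motif AACCGGTT occurred in 0.116% of all promoters and in none of these 10 windows. The 4 windows with an E-box follow, 5′ to 3′ on the strand of the gene, with the E-box in capitals. They cover chr5:134946935-134947184 (minus strand) for Cldn4, chr17:23679115-23679364 (plus) for Cldn6, chr11:69965171-69965420 (plus) for Cldn7 and chr2:167537945-167538194 (plus) for Snai1.
Cldn4: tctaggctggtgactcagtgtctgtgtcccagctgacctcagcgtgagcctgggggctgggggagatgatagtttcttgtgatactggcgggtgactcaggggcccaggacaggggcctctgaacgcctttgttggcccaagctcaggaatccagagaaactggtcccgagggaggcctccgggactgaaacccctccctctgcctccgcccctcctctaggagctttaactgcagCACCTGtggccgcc
Cldn6: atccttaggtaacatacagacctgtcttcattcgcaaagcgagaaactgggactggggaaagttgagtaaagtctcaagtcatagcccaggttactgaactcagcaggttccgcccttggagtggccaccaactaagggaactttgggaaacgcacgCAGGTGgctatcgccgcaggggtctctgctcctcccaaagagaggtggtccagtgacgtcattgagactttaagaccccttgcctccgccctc
Cldn7: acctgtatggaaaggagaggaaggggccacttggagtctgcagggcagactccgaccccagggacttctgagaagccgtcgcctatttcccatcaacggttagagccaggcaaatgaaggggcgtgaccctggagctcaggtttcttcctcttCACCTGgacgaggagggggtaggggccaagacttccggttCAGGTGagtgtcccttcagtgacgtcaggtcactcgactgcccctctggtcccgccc
Snai1: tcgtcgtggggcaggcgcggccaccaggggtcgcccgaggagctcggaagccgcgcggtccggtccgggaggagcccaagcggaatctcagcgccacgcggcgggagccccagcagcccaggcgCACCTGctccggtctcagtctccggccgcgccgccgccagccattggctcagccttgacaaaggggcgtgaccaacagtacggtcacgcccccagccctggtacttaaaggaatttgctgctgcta

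Counted from the start, the single E-box began at -14 in Cldn4, at -93 in Cldn6 and at -126 in Snai1. Cldn7 had 2 E-boxes, which began at -97 and -57. A match describes the letters of a window and is not evidence of binding.

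Across the series, 60.3 to 68.6% of spots were well above background on each array. Levels below are log2 signals relative to the 75th percentile of the array, so 0 is a gene at that percentile. Sirt1 itself followed the labels. It was 2.18 ± 0.12 (SE) log2 units lower in sh-SIRT1 RA arrays than in sh-Control RA arrays (limma, adjusted p = 2.48e-07) and 1.81 ± 0.15 lower in sh-SIRT1 vehicle than in sh-Control vehicle arrays (limma, adjusted p = 4.05e-05). The Y-linked gene Ddx3y was not well above background on sh-Control RA arrays 2, 3 and 4 (levels of -6.91, -8.01 and -8.12), against 0.23 on array 1 of that group and 0.33 to 1.60 on the 12 arrays of the other groups. These 3 arrays stand apart in this gene, and whether they hold the same cells as the other sh-Control arrays was not tested. With them in the group, what sets them apart cannot be separated from RA in sh-Control cells. Nor can it be separated from the hairpin under RA. Called differences that use the sh-Control RA group are therefore also given with array 1 alone as that group. That fit has no replicate for the group, so array 1 is assumed to vary like the arrays of the others.

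Of the 10 genes, Grhl2, Snai1, Snai2 and Zeb2 passed the threshold for RA against vehicle in both lines, and Cdh2 in sh-SIRT1 cells. The rest of the 10 did not pass it for RA in either line. In sh-SIRT1 cells 5 of the 10 genes were called at an adjusted p under 0.05 (limma, Benjamini-Hochberg over all genes), against a background of 58.2% of all genes. Of these, 4 were higher (23.0% of all genes) and 1 was lower (35.3% of all genes). In sh-Control cells 4 of the 10 were called, against 46.8% of all genes, 3 of them higher (19.7% of all genes) and 1 lower (27.2% of all genes). Both shares are near their background. Between sh-SIRT1 and sh-Control cells under RA 3 of the 10 were called (background 20.3%), 2 higher (background 8.59%) and 1 lower (background 11.7%). In vehicle 0 of the 10 were called (background 8.62%, with 4.41% higher and 4.21% lower). With limma in vehicle, 3 of the 10 had an unadjusted p under 0.05 (Snai1, Snai2 and Zeb2), as had 23.7% of all genes. For the difference between the RA differences of the lines, 0 of the 10 were called (background 3.59%, with 1.71% higher and 1.88% lower), and Cdh2 alone of the 10 had an unadjusted p under 0.05 in limma, as had 20.0% of all genes.

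**Figure D1:**
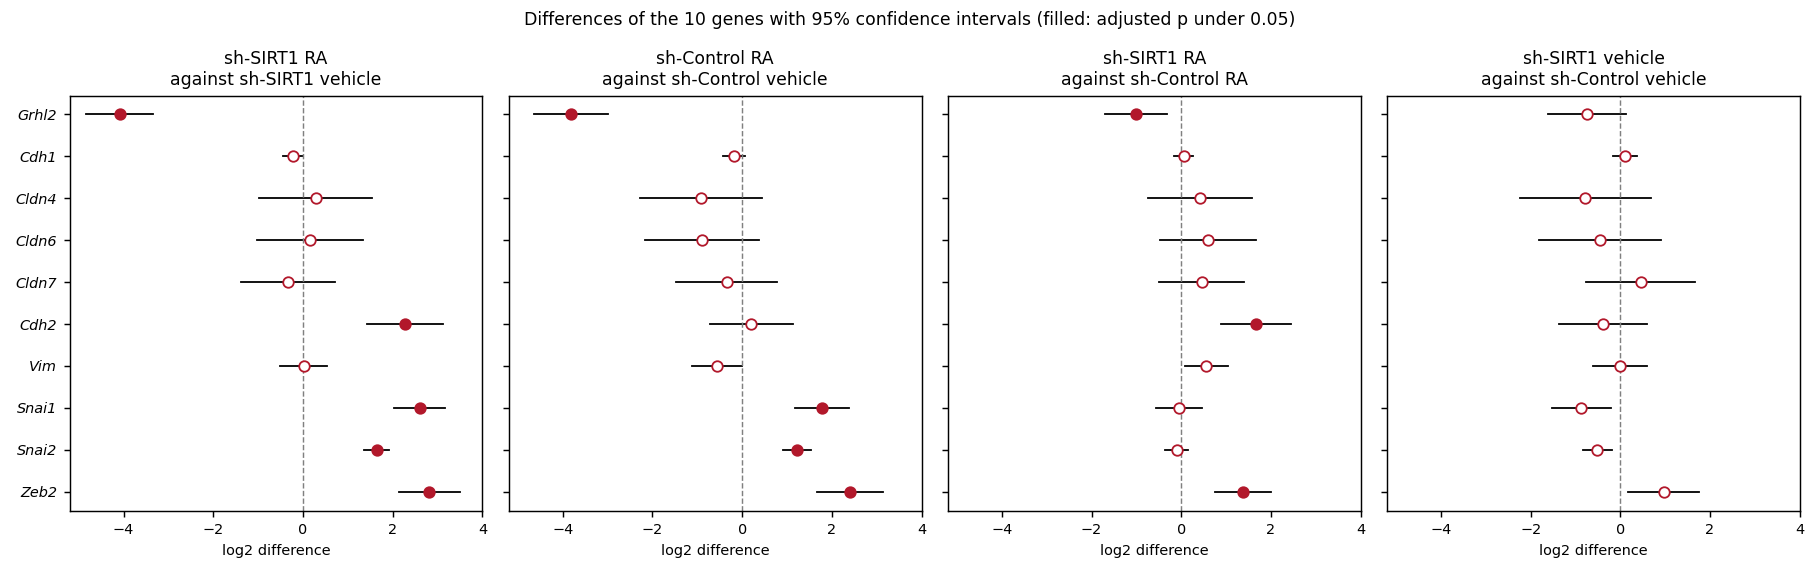
Log2 difference of each gene (horizontal axis, points, with 95% confidence intervals as lines) for RA against vehicle in sh-SIRT1 and in sh-Control cells, and for sh-SIRT1 against sh-Control cells under RA and in vehicle, with filled points where the adjusted p was under 0.05. Grhl2 lies farthest to the left in both RA panels (-4.09 and -3.82), Snai1, Snai2 and Zeb2 lie to the right in both, and Cdh2 is filled in both panels that hold sh-SIRT1 RA arrays.

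The groups did not overlap for 6 of the 10 genes between RA and vehicle in sh-SIRT1 cells (57.8% of all genes), and for 4 in sh-Control cells (47.7% of all genes). Between sh-SIRT1 and sh-Control cells they did not overlap for 0 of the 10 under RA (15.4% of all genes) and for 4 in vehicle (36.0% of all genes). The median difference of the 10 genes was 0.22 for RA against vehicle in sh-SIRT1 cells, with -0.13 over all genes, and -0.26 in sh-Control cells, with -0.14 over all genes. Between the lines it was 0.43 under RA, with -0.04 over all genes, and -0.42 in vehicle, with -0.01 over all genes. These medians join genes of opposite roles.

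**Figure D2:**
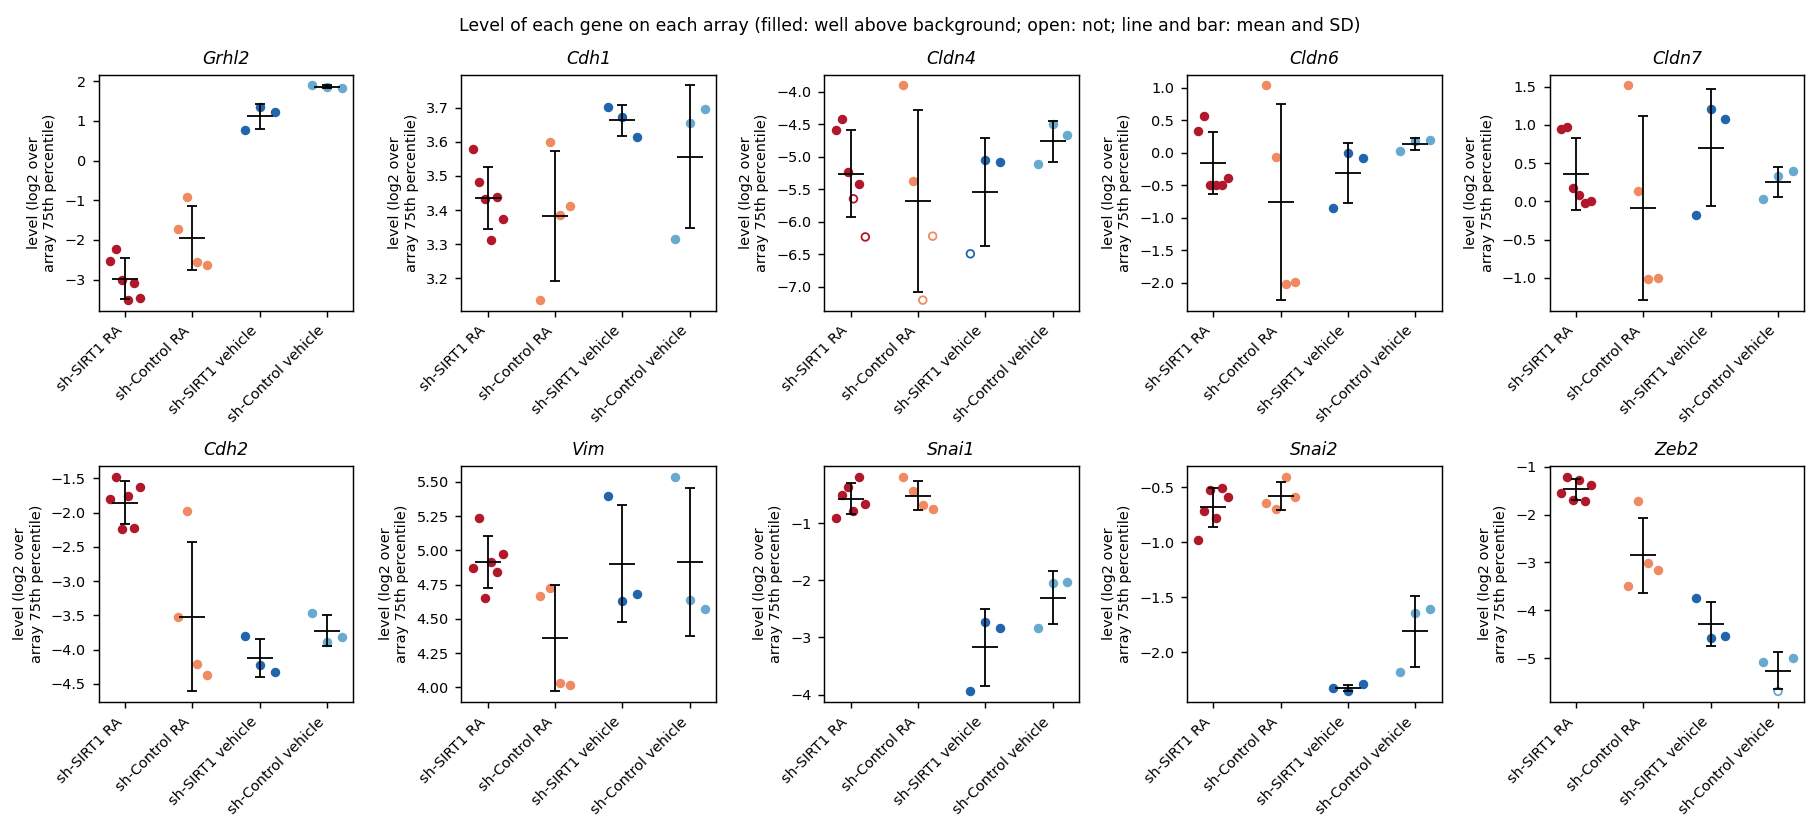
Level of each gene (vertical axis, log2 signal over the 75th percentile of the array) on every array of the 4 groups, as points that are filled where the probe was well above background, with the group mean and SD as black lines. The RA arrays lie below all vehicle arrays for Grhl2 and above the vehicle arrays of their line for Snai1, Snai2 and Zeb2, and the claudins spread most within the sh-Control RA group.

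Grhl2, the activator of the epithelial programme, had the largest change of the 10 genes under RA. Its level was -3.52, -3.05 and -2.24 (lowest, median and highest) on the 6 sh-SIRT1 RA arrays, and -1.73, -0.92, -2.54 and -2.64 on sh-Control RA arrays 1 to 4. Vehicle levels were 0.76, 1.35 and 1.23 on sh-SIRT1 arrays, and 1.90, 1.85 and 1.83 on sh-Control arrays. Every RA array was below every vehicle array, and the sh-SIRT1 vehicle arrays were all below the sh-Control vehicle arrays. The level fell by 4.09 ± 0.35 in sh-SIRT1 RA cells against sh-SIRT1 vehicle cells, which is 17.0-fold (limma, adjusted p = 4.65e-07). It fell by 3.82 ± 0.38 in sh-Control RA cells against sh-Control vehicle cells, which is 14.1-fold (limma, adjusted p = 3.19e-06). With array 1 alone as the sh-Control RA group the second difference was -3.58 (limma, adjusted p = 1.42e-04). As these are RNA levels of a culture, fewer cells that express a gene and less RNA per cell cannot be told apart here or for any gene below.

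Of the other Grhl2 probes 1 was tested. Probe A_51_P408821, whose sequence is shown above, was called lower in sh-SIRT1 RA than in sh-SIRT1 vehicle cells (limma over all probes, adjusted p = 0.00120) and in sh-Control RA than in sh-Control vehicle cells (limma over all probes, adjusted p = 7.81e-04). No size is given, because most or all RA arrays had it at background. The probe was well above background on 1 of 6 sh-SIRT1 RA arrays and 0 of 4 sh-Control RA arrays, and on all 6 vehicle arrays. The other probe shown above, A_52_P373982, was too dim to be tested. It was well above background on 0 of 6 sh-SIRT1 RA arrays and 1 of 4 sh-Control RA arrays, and on 2 of 3 vehicle arrays of either line. Its level was -5.51 on sh-Control RA array 1 and -8.14 to -7.90 on the other sh-Control RA arrays, against -5.37 to -4.66 on the sh-Control vehicle arrays. That array lay just below its vehicle arrays.

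**Figure D3:**
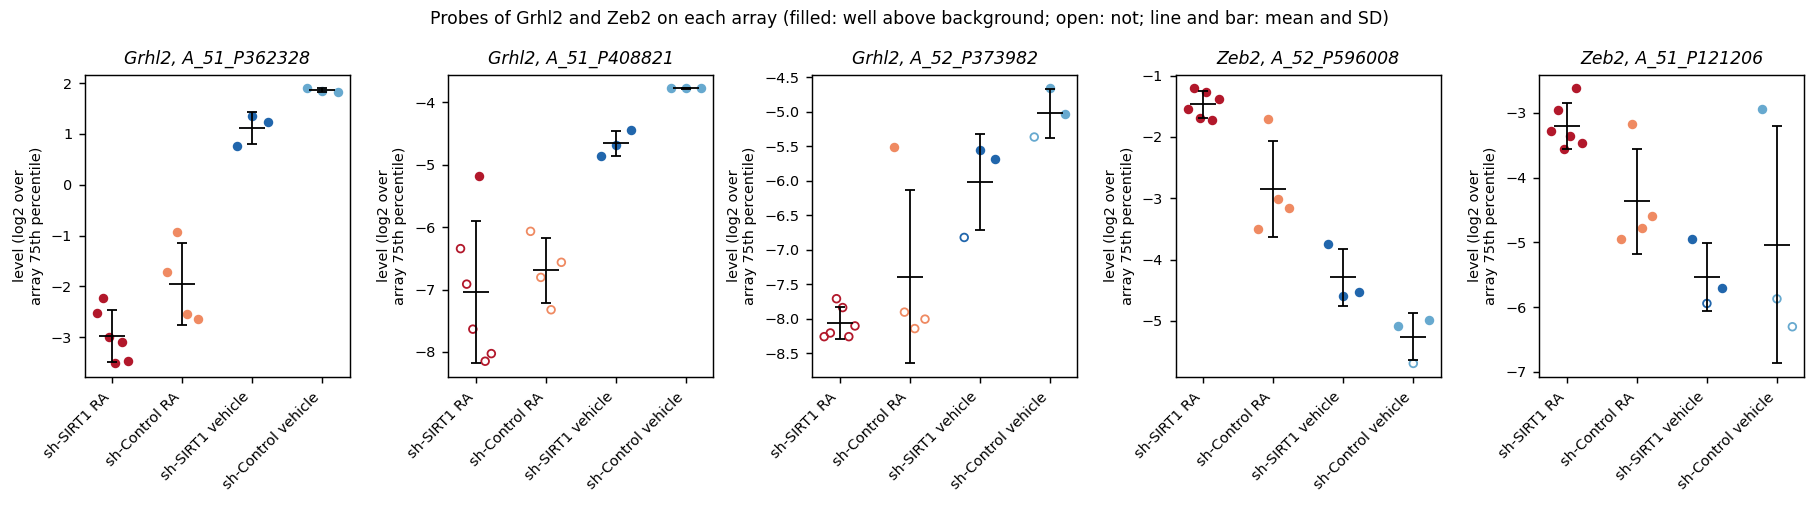
Level (vertical axis, log2 signal over the 75th percentile of the array) of the 3 Grhl2 probes and of 2 Zeb2 probes on each array of the 4 groups, filled where well above background, with the group mean and SD as black lines. The Grhl2 probes have lower group means under RA than in vehicle, with most RA arrays of the 2 dimmer probes at background, and A_51_P121206 of Zeb2 spreads widely in sh-Control vehicle.

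Grhl2 also differed between the lines under RA. It was 1.01 ± 0.32 lower in sh-SIRT1 RA than in sh-Control RA cells (limma, adjusted p = 0.0384), with overlapping groups. This call was lost in 12 of 27 alternative fits, with values between -1.25 and -0.67. Without 1 array it was lost for sh-SIRT1 RA array 3, 4, 5 or 6, sh-Control RA array 1 or 2, or sh-SIRT1 vehicle array 3, and its value was -0.67 without sh-Control RA array 2. With sh-Control RA array 1 alone it was -1.25 (limma, adjusted p = 0.0723). In vehicle the difference of sh-SIRT1 from sh-Control cells was -0.74 ± 0.41 (limma, adjusted p = 0.295), and with the replicate number as a block it passed the threshold (limma, adjusted p = 0.0320). The RA differences of the lines differed by -0.27 ± 0.52 (limma, adjusted p = 0.817), with a 95% interval from -1.38 to 0.84. Probe A_51_P408821, at background on most or all arrays of both RA groups, was not called between the lines under RA (limma over all probes, adjusted p = 0.643).

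Cdh1, which encodes E-cadherin, was not called in any of the 5 comparisons. Its level was 3.31, 3.44 and 3.58 (lowest, median and highest) on sh-SIRT1 RA arrays, and 3.14, 3.60, 3.39 and 3.41 on sh-Control RA arrays. Vehicle levels were 3.70, 3.67 and 3.61 on sh-SIRT1 arrays and 3.32, 3.66 and 3.70 on sh-Control arrays. All sh-SIRT1 RA arrays were below all sh-SIRT1 vehicle arrays, by a small margin, and the sh-Control groups overlapped. The difference of RA from vehicle was -0.23 ± 0.11 in sh-SIRT1 cells (limma, adjusted p = 0.0807, 95% interval -0.46 to 0.00047) and -0.17 ± 0.11 in sh-Control cells (limma, adjusted p = 0.229, 95% interval -0.42 to 0.07). The Cdh1 probe was spotted 10 times on each array, and the SD of these spots was 0.03 to 0.09, beside an SD between the arrays of a group of 0.04 to 0.21.

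Whether Cdh1 passed the threshold depended on the scaling. Scaled to the median of each array in place of the 75th percentile, it was lower under RA in both lines, by -0.51 in sh-SIRT1 and -0.33 in sh-Control cells (limma, adjusted p = 0.00155 and 0.0444), while the median of all genes moved to -0.42 and -0.29 in the same comparisons. With quantile normalization the differences were 0.07 and 0.03. With sh-Control RA array 1 alone the difference in sh-Control cells was -0.42 (limma, adjusted p = 0.0482). The difference in sh-SIRT1 cells also passed without sh-Control vehicle array 1 or sh-Control RA array 1 (limma, adjusted p = 0.0477 and 0.0475) and with only the groups of the comparison fitted (limma, adjusted p = 0.0231), which left its size as it was. Cdh1 lies on chromosome 8, where sh-SIRT1 cells had higher levels than sh-Control cells over most of the 732 genes tested, with medians of 0.36 in vehicle and 0.26 under RA. Cdh1 differed by 0.11 ± 0.12 in vehicle (limma, adjusted p = 0.651) and by 0.05 ± 0.10 under RA (limma, adjusted p = 0.749).

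The 3 claudin genes, whose proteins form the strands of tight junctions, varied widely among the sh-Control RA arrays. Cldn6 was at -0.50, -0.44 and 0.56 (lowest, median and highest) on sh-SIRT1 RA arrays, and at 1.04, -0.06, -2.03 and -1.99 on sh-Control RA arrays. Without RA it was at -0.84, -0.01 and -0.08 on sh-SIRT1 arrays and at 0.03, 0.18 and 0.20 on sh-Control arrays. Sh-Control RA array 1 was above and arrays 3 and 4 were below all vehicle arrays.

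Cldn7 showed the same order of arrays, with 1.52, 0.14, -1.02 and -1.0 on sh-Control RA arrays 1 to 4, and -0.02, 0.13 and 0.97 (lowest, median and highest) on sh-SIRT1 RA arrays. In vehicle Cldn7 was at -0.17, 1.21 and 1.07 on sh-SIRT1 arrays and at 0.03, 0.32 and 0.40 on sh-Control arrays. Cldn4 was at -6.24, -5.33 and -4.42 (lowest, median and highest) on sh-SIRT1 RA arrays and at -3.90, -5.38, -7.21 and -6.22 on sh-Control RA arrays. In both RA groups arrays 1 and 2 had the highest Cldn4, Cldn6 and Cldn7 levels. In vehicle Cldn4 was at -6.50, -5.06 and -5.08 on sh-SIRT1 arrays and at -5.11, -4.50 and -4.67 on sh-Control arrays. Its probe was well above background on 4 of 6 sh-SIRT1 RA, 2 of 4 sh-Control RA, 2 of 3 sh-SIRT1 vehicle and 3 of 3 sh-Control vehicle arrays.

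None of the claudins was called in any of the 5 comparisons. In sh-SIRT1 cells RA differed from vehicle by 0.28 ± 0.59 for Cldn4, 0.15 ± 0.55 for Cldn6 and -0.34 ± 0.49 for Cldn7 (limma, adjusted p = 0.701, 0.832 and 0.570). In sh-Control cells the differences were -0.92 ± 0.64, -0.90 ± 0.59 and -0.34 ± 0.53 in the same order (limma, adjusted p = 0.25, 0.228 and 0.613). Their 95% intervals reach from -2.28 to 0.45 for Cldn4 and from -2.17 to 0.38 for Cldn6. Sh-Control RA array 1 decided these values. Without array 1, Cldn4 and Cldn6 were called lower in sh-Control RA than in sh-Control vehicle cells, by -1.51 and -1.50 (limma, adjusted p = 0.0333 and 0.0180). Cldn6 was then also called higher in sh-SIRT1 RA than in sh-Control RA cells, by 1.20 (limma, adjusted p = 0.0459). These calls lean on arrays 3 and 4, the lowest of the group, which were the closest pair of arrays within any group. The SD of the log2 differences between these arrays was 0.21, against 0.63 to 0.74 for the other sh-Control RA pairs. Whether they are duplicates of the same cells is not marked. With array 1 alone the differences from vehicle were 0.86 for Cldn4, 0.90 for Cldn6 and 1.26 for Cldn7, none of them called (limma, adjusted p = 0.350, 0.135 and 0.0846).

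Like the claudins, the summed level of primitive and parietal endoderm markers was highest on arrays 1 and 2 of both RA groups. The summed level of the 14 endoderm markers, in multiples of the 75th percentile of the array, was 46.1 to 65.6 on sh-SIRT1 RA arrays, where arrays 1 and 2 had the highest sums. On sh-Control RA arrays 1 to 4 it was 144, 53.8, 35.6 and 34.2. In vehicle it was 35.8 to 37.3 on sh-SIRT1 and 35.4 to 43.4 on sh-Control arrays. Such a sum is weighted to the brightest markers. The mean log2 level of the 14 markers was -1.02 and -1.04 on sh-Control RA arrays 3 and 4. That was above the -2.57 to -2.49 of sh-Control vehicle arrays, while Cldn6 and Cldn7 were below those vehicle arrays. Of the 14 markers, 10 rose in sh-SIRT1 cells and 9 in sh-Control cells under RA (all genes 23.0% and 19.7%). On the vehicle arrays of both lines Pdgfra and Thbd stayed at background. High sums on arrays 1 and 2 were not particular to endoderm markers. Fibroblast markers, described below, had sums of 18.2, 22.3, 10.4 and 10.1 on sh-Control RA arrays 1 to 4. On sh-SIRT1 RA arrays 1 and 2, fibroblast sums (16.8 and 17.4) and trophoblast sums (13.1 and 14.5) were also the highest of the group. The part of any of these cell types in the claudin levels was not tested.

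Snai1, which encodes the repressor Snail, rose under RA in both lines. Its level was -0.91, -0.58 and -0.19 (lowest, median and highest) on sh-SIRT1 RA arrays and -0.20, -0.45, -0.68 and -0.75 on sh-Control RA arrays. Vehicle arrays had -3.94, -2.74 and -2.83 in sh-SIRT1 and -2.84, -2.05 and -2.02 in sh-Control cells. Every RA array was above every vehicle array. The level rose by 2.60 ± 0.26 in sh-SIRT1 cells, which is 6.05-fold (limma, adjusted p = 1.97e-06), and by 1.78 ± 0.28 in sh-Control cells, which is 3.44-fold (limma, adjusted p = 1.92e-04). Array 1 alone as the sh-Control RA group gave 2.10 (limma, adjusted p = 0.00462).

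Snai2, which encodes the related repressor Slug and was read at chr16:14250104-14250163 (mm7, plus strand), rose with a smaller spread. Its level was -0.98, -0.65 and -0.51 (lowest, median and highest) on sh-SIRT1 RA arrays and -0.64, -0.70, -0.40 and -0.59 on sh-Control RA arrays. In vehicle it was -2.33, -2.35 and -2.29 on sh-SIRT1 arrays and -2.18, -1.64 and -1.60 on sh-Control arrays. All RA arrays were above all vehicle arrays, and all sh-SIRT1 vehicle arrays were below all sh-Control vehicle arrays. The rise was 1.64 ± 0.13 in sh-SIRT1 cells, which is 3.12-fold (limma, adjusted p = 2.72e-07), and 1.23 ± 0.14 in sh-Control cells, which is 2.34-fold (limma, adjusted p = 1.40e-05). Array 1 alone as that group gave 1.17 (limma, adjusted p = 0.00248).

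Between the lines both Snail genes were near each other under RA and lower in sh-SIRT1 cells in vehicle, where the difference missed the threshold. Under RA sh-SIRT1 differed from sh-Control cells by -0.05 ± 0.24 for Snai1 and -0.10 ± 0.12 for Snai2 (limma, adjusted p = 0.905 and 0.609). The 95% intervals were -0.57 to 0.46 and -0.36 to 0.16. In vehicle the differences were -0.87 ± 0.30 for Snai1 and -0.51 ± 0.15 for Snai2 (limma, adjusted p = 0.0942 and 0.0528). With the replicate number as a block both passed the threshold (limma, adjusted p = 0.0208 and 0.0327). Both also passed it without sh-Control vehicle array 1 (limma, adjusted p = 0.0355 and 0.00689), and Snai2 passed it without sh-Control RA array 1 or sh-SIRT1 RA array 1 (limma, adjusted p = 0.0493 and 0.0389). Within slide 1, which held 1 array of either vehicle group, Snai1 differed by 0.10 and Snai2 by -0.17, and within slide 3 by -0.78 and -0.65. The RA differences of the lines differed by 0.82 ± 0.39 for Snai1 and 0.41 ± 0.20 for Snai2, which were not called (limma, adjusted p = 0.258 and 0.256). Without sh-Control vehicle array 1 the Snai2 value was 0.60 and was called (limma, adjusted p = 0.0479).

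Zeb2, read at chr2:44994565-44994624 (mm7, minus strand), encodes a repressor that binds the same E-boxes and a regulator of neural crest cells. It rose in both lines and was higher in sh-SIRT1 cells under RA. Its level was -1.73, -1.46 and -1.21 (lowest, median and highest) on sh-SIRT1 RA arrays and -3.50, -1.72, -3.01 and -3.17 on sh-Control RA arrays. Vehicle arrays had -3.75, -4.59 and -4.53 on sh-SIRT1 arrays and -5.08, -5.69 and -4.99 on sh-Control arrays. The probe was not well above background on sh-Control vehicle array 2. The RA arrays of each line were above its vehicle arrays, and sh-Control RA array 2 alone reached the sh-SIRT1 RA range. Zeb2 rose by 2.82 ± 0.32 in sh-SIRT1 cells, which is 7.04-fold (limma, adjusted p = 5.20e-06), and by 2.41 ± 0.34 in sh-Control cells, which is 5.31-fold (limma, adjusted p = 7.94e-05). With sh-Control RA array 1 alone the rise in sh-Control cells was 1.76 (limma, adjusted p = 0.00286).

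Under RA, Zeb2 was 1.38 ± 0.29 higher in sh-SIRT1 than in sh-Control cells, which is 2.60-fold (limma, adjusted p = 0.00480). This call was kept in all 26 alternative fits that tested it, with adjusted p between 1.51e-04 and 0.0357 in limma, and with sh-Control RA array 1 alone the difference was 2.03 (limma, adjusted p = 0.00424). It was 1.74 within slide 1, 0.71 within slide 2 and 2.04 within slide 4. In vehicle the difference was 0.97 ± 0.37 and was not called (limma, adjusted p = 0.121), though it was called without sh-Control RA array 2 and with sh-Control RA array 1 alone (limma, adjusted p = 0.0229 and 0.0272). The RA differences of the lines differed by 0.41 ± 0.47 (limma, adjusted p = 0.679).

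The other tested Zeb2 probe, A_51_P121206, passed the threshold in fewer comparisons. It gave 2.33 ± 0.59 for RA against vehicle in sh-SIRT1 cells, which was called, and 0.67 ± 0.64 in sh-Control cells, which was not (limma over all probes, adjusted p = 0.00371 and 0.408). Under RA it was 1.16 ± 0.54 higher in sh-SIRT1 than in sh-Control cells, which was not called (limma over all probes, adjusted p = 0.145). Its vehicle arrays spread widely, at -4.95, -5.94 and -5.71 in sh-SIRT1 and at -2.93, -5.87 and -6.30 in sh-Control cells. Probes A_52_P526372 and A_52_P587928 of Zeb2 were too dim to be tested.

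Cdh2, the gene of N-cadherin on chromosome 18, rose under RA in sh-SIRT1 cells. Its level was -2.24, -1.78 and -1.47 (lowest, median and highest) on sh-SIRT1 RA arrays and -3.52, -1.98, -4.21 and -4.37 on sh-Control RA arrays. In vehicle it was -3.81, -4.22 and -4.34 on sh-SIRT1 arrays and -3.47, -3.90 and -3.82 on sh-Control arrays. All sh-SIRT1 RA arrays were above all vehicle arrays, whereas of the sh-Control RA arrays only array 2 was, and arrays 3 and 4 were below the sh-Control vehicle arrays. The rise was 2.27 ± 0.40 in sh-SIRT1 cells, which is 4.82-fold (limma, adjusted p = 2.23e-04). In sh-Control cells the difference was 0.21 ± 0.43 (limma, adjusted p = 0.71, 95% interval -0.71 to 1.12), and without array 2 it was -0.31 (limma, adjusted p = 0.339).

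Under RA, Cdh2 was 1.67 ± 0.36 higher in sh-SIRT1 than in sh-Control cells, which is 3.18-fold (limma, adjusted p = 0.00551). With sh-Control RA array 1 alone the difference was also 1.67 (limma, adjusted p = 0.00611), and without array 2 it was 2.18. Within slides 1, 2 and 4 it was 2.45, 0.96 and 1.81. The call was lost in 1 of 27 alternative fits, with normexp background correction, where the difference was 0.86 (limma, adjusted p = 0.0625). The RA differences of the lines differed by 2.06 ± 0.58, which missed the threshold (limma, adjusted p = 0.0654). That difference passed the threshold with the replicate number as a block (2.10, limma, adjusted p = 0.0389), without sh-Control RA array 2 (2.58, limma, adjusted p = 0.00221) and with sh-Control RA array 1 alone (2.06, limma, adjusted p = 0.0325). In vehicle Cdh2 differed by -0.39 ± 0.46 (limma, adjusted p = 0.656). The other 2 Cdh2 probes were well above background on 1 array at most and were not tested.

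Vim, the gene of vimentin, read at chr2:13521763-13521822 (mm7, plus strand), had no called difference. Its level was 4.65, 4.89 and 5.23 (lowest, median and highest) on sh-SIRT1 RA arrays and 4.66, 4.72, 4.03 and 4.02 on sh-Control RA arrays. In vehicle it was 5.39, 4.63 and 4.68 on sh-SIRT1 arrays and 5.54, 4.63 and 4.57 on sh-Control arrays. Array 1 of either line was the highest in vehicle, and sh-Control RA arrays 3 and 4 were the lowest of all 16. The difference of RA from vehicle was 0.01 ± 0.24 in sh-SIRT1 cells and -0.56 ± 0.26 in sh-Control cells (limma, adjusted p = 0.966 and 0.0957), with 95% intervals from -0.51 to 0.53 and from -1.12 to 0.0056.

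Under RA, Vim was 0.56 ± 0.22 higher in sh-SIRT1 than in sh-Control cells, which missed the threshold (limma, adjusted p = 0.0927). It passed the threshold with the replicate number as a block (limma, adjusted p = 0.0125), with quantile normalization (0.66, limma, adjusted p = 0.0290) and without sh-Control vehicle array 1 (limma, adjusted p = 0.0459). With sh-Control RA array 1 alone the difference was 0.25 (limma, adjusted p = 0.676). The other Vim probe stayed at background on all arrays.

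The order of the groups therefore differed from gene to gene. By group means Grhl2 was highest in sh-Control vehicle, then sh-SIRT1 vehicle, sh-Control RA and sh-SIRT1 RA cells. Its difference between the lines was not called in vehicle, and under RA the call was lost in 12 of 27 alternative fits. Snai1 and Snai2 were highest in the RA groups, whose means lay within each other's spread. Zeb2 and Cdh2 were highest in sh-SIRT1 RA cells. The means of Cdh1 and of the 3 claudins lay within the spread of at least one neighbouring group.

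The profiles most like those of 6 of the genes were taken over all 16 arrays, by the root mean square distance between levels centred on each gene's mean. Grhl2 was closest to Egr1, Glod5 and Aass (distances of 0.381, 0.486 and 0.587, with an SD of Grhl2 of 2.07). Cdh2 was closest to Ptn, Hip1 and Pxdn (0.271, 0.336 and 0.380, SD 1.08), and Vim to Tmsb4x, Rassf1 and Dapk1 (0.170, 0.187 and 0.196, SD 0.40). Snai1 was closest to Slc43a3, Rab3b and Emilin2 (0.215, 0.266 and 0.271, SD 1.14), and Zeb2 to Lhx2, Fam149a and Parva (0.392, 0.404 and 0.422, SD 1.52). Cdh1, which varied little (SD 0.16), was closest to Ncapg2, Mcm6 and Melk (0.075, 0.078 and 0.087).

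Other epithelial genes moved in both directions under RA. Of 45 tested, 13 rose and 12 fell in sh-SIRT1 cells and 15 rose and 9 fell in sh-Control cells, with medians of 0.02 and 0.15 beside -0.13 and -0.14 over all genes. The shares called, 55.6% and 53.3%, were near the 58.2% and 46.8% of all genes. The largest changes were rises of desmosome and keratin genes. Dsp, the gene of the desmosomal plaque protein desmoplakin, rose by 3.94 ± 0.25 in sh-SIRT1 and 2.52 ± 0.27 in sh-Control cells (limma, adjusted p = 3.36e-08 and 6.87e-06). Krt18, a keratin of simple epithelia, rose by 3.01 ± 0.47 and 2.44 ± 0.51 in the same order, and Krt7 by 4.17 ± 0.57 and 2.47 ± 0.62. Dsc2, which encodes the desmosomal cadherin desmocollin 2, was called higher under RA in sh-SIRT1 cells (limma, adjusted p = 0.00129), with no size given because 1 of 3 vehicle arrays had it well above background. In sh-Control cells, whose vehicle arrays had Dsc2 at background, it was at least 7.10-fold higher under RA (limma, adjusted p = 0.00126).

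**Figure D4:**
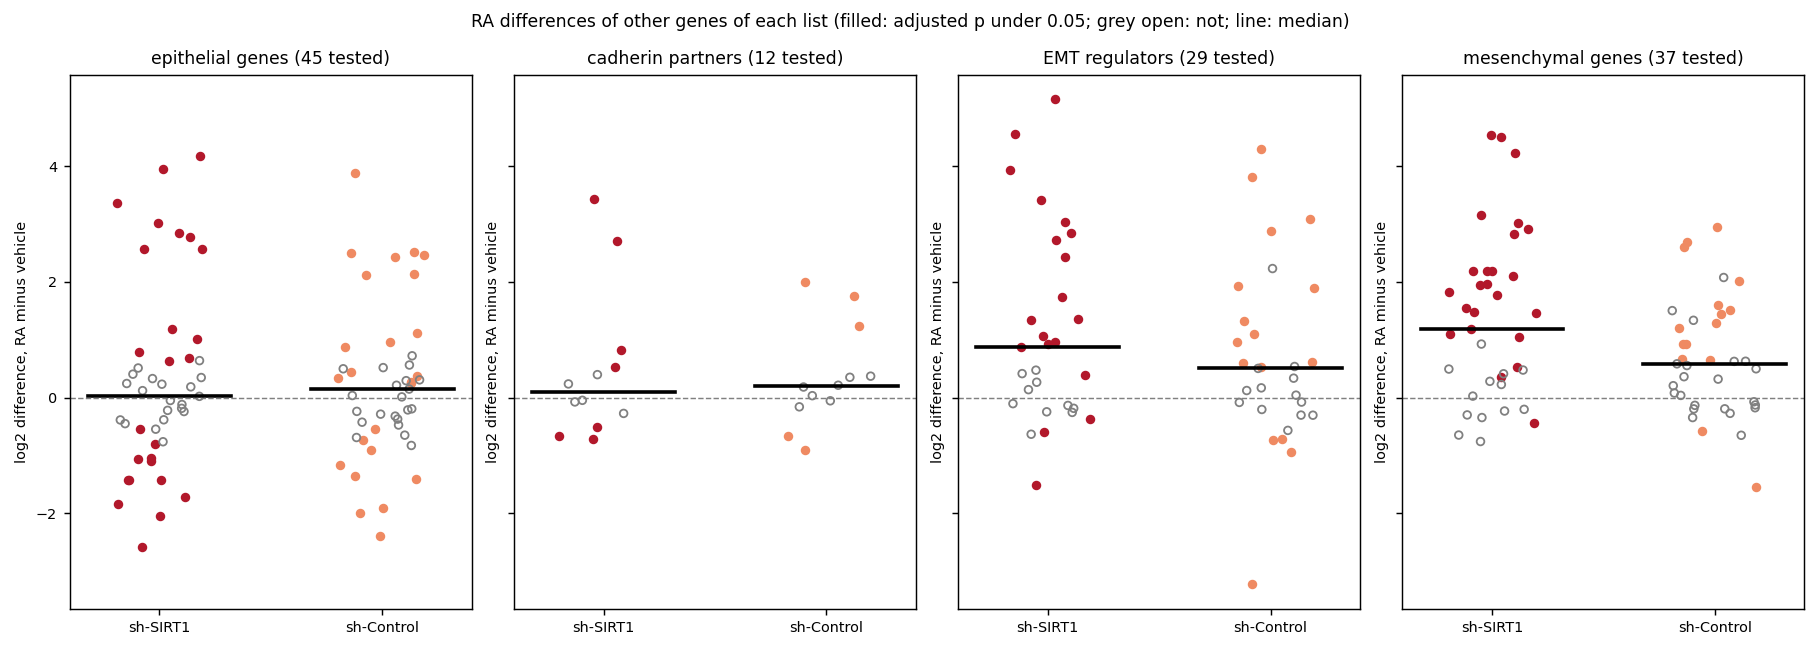
Log2 difference of RA from vehicle (vertical axis) for the other genes of 4 lists, in sh-SIRT1 and in sh-Control cells, as points that are coloured where the adjusted p was under 0.05, with the median of the list as a black line. Epithelial genes and cadherin partners lie on both sides of 0, while the called EMT regulators and mesenchymal genes lie mostly above it.

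Between the lines 3 epithelial genes were called in vehicle, all higher in sh-SIRT1 cells (6.67%, beside 8.62% of all genes called). They were led by Dsg2, a desmosomal cadherin, at 1.18 ± 0.23, and Marveld2, a tight junction protein, at 0.79 ± 0.18 (limma, adjusted p = 0.00618 and 0.0166). That count was 9 with the replicate number as a block, 5 with sh-Control RA array 1 alone and 1 with normexp. Under RA 3 were called higher and 4 lower in sh-SIRT1 than in sh-Control cells (15.6%, beside 20.3% of all genes called). Dsp was 1.24 ± 0.23 higher (limma, adjusted p = 0.00232). The count of 7 under RA was 20 with the replicate number as a block, 11 without sh-Control RA array 1 and 4 with that array alone.

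Among EMT regulators other than the 10 genes more rose than fell. Of 29 tested, 16 rose and 3 fell in sh-SIRT1 cells (all genes 23.0% and 35.3%) and 12 rose and 4 fell in sh-Control cells (all genes 19.7% and 27.2%), with medians of 0.87 and 0.51. The count of 16 called in sh-Control cells was 10 with normexp, 10 with only the groups of the comparison fitted and 7 with the replicate number as a block across treatments. Sox9 and Foxc2, transcription factors of neural crest and mesenchyme, stayed at background on all vehicle arrays. Sox9 was at least 9.33-fold higher under RA in sh-SIRT1 cells and at least 4.60-fold in sh-Control cells (limma, adjusted p = 1.68e-07 and 3.37e-06), and Foxc2 at least 6.46-fold and 2.56-fold (limma, adjusted p = 4.26e-10 and 2.73e-08). Tgfbr2, a receptor of transforming growth factor beta, rose by 3.03 ± 0.33 in sh-SIRT1 cells (limma, adjusted p = 3.68e-06). In sh-Control cells Tgfbr2 was called higher under RA (limma, adjusted p = 1.21e-05), with no size given because 1 of 3 vehicle arrays measured it above background. Gsc, a factor of the organizer, was at least 7.58-fold higher in sh-SIRT1 RA than in sh-SIRT1 vehicle cells and rose by 3.81 ± 0.77 in sh-Control cells, where 2 of 3 vehicle arrays measured it (limma, adjusted p = 9.38e-04 and 0.00118).

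Between the lines under RA, 10 of the 29 EMT regulators were called higher and 1 lower in sh-SIRT1 cells (all genes 8.59% and 11.7%). Their median was 0.38, with -0.04 over all genes. Tgfb3, a ligand of that receptor, was 1.76 ± 0.28 higher and Twist2, a factor of mesenchyme, 1.72 ± 0.53 higher (limma, adjusted p = 8.39e-04 and 0.0340). Twist2 was well above background on 6 of 6 sh-SIRT1 RA and 2 of 4 sh-Control RA arrays. The count of 11 called was 6 without sh-Control RA array 3, 7 without array 4 and 11 with array 1 alone. In vehicle 1 was called (3.45%, beside 8.62% of all genes). It was Lef1, a partner of beta-catenin, which was lower in sh-SIRT1 cells (-1.28 ± 0.37, limma, adjusted p = 0.0483). That count was 9 with the replicate number as a block. It was 2 with only the groups of the comparison fitted or without sh-Control RA array 2, and 3 with sh-Control RA array 1 alone. With limma it was 0 under normexp, median scaling, quantile normalization or no filter on dim probes, and 0 without any one of the sh-SIRT1 vehicle arrays, sh-Control vehicle array 2 or 3, sh-Control RA array 3 or 4, or sh-SIRT1 RA array 2, 3, 4, 5 or 6.

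Mesenchymal genes other than Cdh2 and Vim rose more often than they fell. Of 37 tested, 23 rose and 1 fell in sh-SIRT1 cells and 13 rose and 2 fell in sh-Control cells, with medians of 1.18 and 0.58. The shares called were 64.9% and 40.5%, beside 58.2% and 46.8% of all genes. Mmp9, a matrix protease, rose by 4.22 ± 0.23 in sh-SIRT1 and 2.69 ± 0.25 in sh-Control cells (limma, adjusted p = 8.62e-09 and 1.51e-06). Cd44, a receptor of hyaluronan, was at least 19.7-fold higher in sh-SIRT1 RA than in sh-SIRT1 vehicle cells (limma, adjusted p = 3.98e-07). In sh-Control cells Cd44 was called higher under RA (limma, adjusted p = 6.60e-05), with no size given because 1 of 3 vehicle arrays measured it. Fbn1, the gene of the microfibril protein fibrillin 1, rose by 2.91 ± 0.12 in sh-SIRT1 cells and was at least 5.41-fold higher in sh-Control RA than in sh-Control vehicle cells (limma, adjusted p = 1.15e-09 and 1.09e-08). Tnc, which encodes tenascin C, was at least 6.35-fold higher in sh-SIRT1 RA than in sh-SIRT1 vehicle cells (limma, adjusted p = 0.00443).

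Between the lines under RA, 11 of the 37 mesenchymal genes were called, all of them higher in sh-SIRT1 cells (all genes 8.59% higher). Their median was 0.51, with -0.04 over all genes. Nes, the gene of the intermediate filament protein nestin, was 1.25 ± 0.18 higher (limma, adjusted p = 3.84e-04). Nes is also one of the neuroectoderm markers described below. Cdh6, a cadherin, was called higher (limma, adjusted p = 0.0213) and was well above background on 6 of 6 sh-SIRT1 RA and 1 of 4 sh-Control RA arrays, so no size is given. The count of 11 was 24 with the replicate number as a block, 19 without sh-Control RA array 2, 6 without array 3 or 4, and 4 with array 1 alone. In vehicle 1 was called (2.70%, beside 8.62% of all genes). It was Timp3, an inhibitor of matrix proteases, which was lower in sh-SIRT1 cells (-1.05 ± 0.27, limma, adjusted p = 0.0279). That count was 8 with the replicate number as a block and 5 with sh-Control RA array 1 alone. With limma it was 0 under slide as a fixed block, normexp or no filter on dim probes, and 0 without sh-Control vehicle array 2 or 3 or sh-SIRT1 vehicle array 1. It was 3 with median scaling, with only the groups of the comparison fitted, or without sh-Control vehicle array 1, sh-Control RA array 1 or sh-Control RA array 2, and 2 without sh-SIRT1 RA array 1 or 2.

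Cadherin partners, the catenins and related adhesion proteins, moved in both directions. Of 12 tested, 4 rose and 3 fell in sh-SIRT1 cells (58.3% called) and 3 rose and 2 fell in sh-Control cells (41.7% called), near the shares of all genes. Ctnna2, the alpha-catenin of neurons, was at least 5.01-fold higher in sh-SIRT1 RA than in sh-SIRT1 vehicle cells (limma, adjusted p = 1.01e-04). In sh-Control cells Ctnna2 was called higher under RA (limma, adjusted p = 0.0245), with no size given because 1 of 3 vehicle arrays measured it. Nectin3, an adhesion protein that works beside cadherins, fell by 0.72 ± 0.12 and 0.91 ± 0.13 (limma, adjusted p = 1.24e-04 and 6.47e-05). Cdh15 rose by 0.83 ± 0.16 and 1.24 ± 0.17, and Pcdh18 was at least 2.54-fold and 1.63-fold higher under RA. Ctnnal1, a protein related to alpha-catenin, was lower in sh-SIRT1 RA than in sh-Control RA cells (-1.28 ± 0.23, limma, adjusted p = 0.00199), and Nectin2 was higher (0.36 ± 0.08, limma, adjusted p = 0.00519). The 3 partners called between the lines under RA became 5 with the replicate number as a block and 0 with sh-Control RA array 1 alone.

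Markers of other cell types moved with RA beside these lists. Of 11 fibroblast markers tested, which would also mark feeder cells, 10 rose in sh-SIRT1 and 7 in sh-Control cells (all genes 23.0% and 19.7%). Their summed level was 10.9 to 17.4 on sh-SIRT1 RA and 10.1 to 22.3 on sh-Control RA arrays, and 3.04 to 3.65 on sh-SIRT1 vehicle and 8.69 to 9.49 on sh-Control vehicle arrays. Dcn and Col6a1 stayed at background on all vehicle arrays, and Col3a1 on all sh-SIRT1 vehicle arrays. In vehicle 3 of the 11 were called lower in sh-SIRT1 than in sh-Control cells (all genes 4.21%). Of 8 trophoblast markers, 6 rose in sh-SIRT1 cells (all genes 23.0%). In sh-Control cells 5 of them rose and 1 fell (all genes 19.7% and 27.2%). Their summed level was 7.31 to 14.5 on sh-SIRT1 RA and 10.99 to 13.2 on sh-Control RA arrays, and 1.34 to 3.47 on sh-SIRT1 vehicle and 3.78 to 8.60 on sh-Control vehicle arrays. Cdx2, Gata3 and Hand1 were not well above background on any sh-Control vehicle array. Krt7 is in both the trophoblast and the epithelial list.

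Of 6 neuroectoderm markers, 3 rose and 2 fell in sh-SIRT1 cells (all genes 23.0% and 35.3%). In sh-Control cells 1 of them rose and 2 fell (all genes 19.7% and 27.2%). Their summed level was 8.56 to 11.7 on sh-SIRT1 RA and 7.03 to 10.3 on sh-Control RA arrays, and 6.83 to 7.18 on sh-SIRT1 vehicle and 8.63 to 9.38 on sh-Control vehicle arrays. The mean log2 level of these 6 markers was instead lower under RA in both lines. It was -2.10 to -1.82 on sh-SIRT1 RA and -1.33 to -0.996 on sh-SIRT1 vehicle arrays. In sh-Control cells it was -2.85 to -2.06 under RA and -1.34 to -0.985 in vehicle. The sum, which is weighted to the brightest markers, did not show this fall. Of 9 embryonic stem cell markers, 1 rose and 6 fell in sh-SIRT1 cells (77.8% called, all genes 58.2%). In sh-Control cells 1 of these markers rose and 5 fell (66.7% called, all genes 46.8%), and all 9 were detected in every group. Their summed level was 126 to 175 on sh-SIRT1 RA and 139 to 258 on sh-Control RA arrays, and 175 to 190 on sh-SIRT1 vehicle and 189 to 213 on sh-Control vehicle arrays. The part of such cells in the levels of the 10 genes was not tested.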

How the data were processed

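RNA of 16 samples was hybridised to 1-colour Agilent mouse arrays, and each deposited file holds the scanner output of 1 array. Per the file headers, the authors extracted the spot intensities with Agilent Feature Extraction 9.5.3.1 (9.5 per the submitters' processing notes), which subtracted the background and reported the processed intensity used here. Groups were taken from the labels.

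Processed intensities were put on the log2 scale and the 75th percentile of each array was subtracted, control spots left out. Outlier spots were set missing and spots of 1 probe averaged. A probe was kept if every array of some group had it well above background (26375 of 41174), and the probe with the highest mean stood for its gene, in every fit unless stated. Of all probes, 17567 were named through an accession in the RefSeq table. A linear model with 1 mean for each of 4 groups was fitted to all 16 arrays by lmFit and eBayes of limma 3.58.1 (R 4.3.3), with two-sided p-values adjusted by Benjamini-Hochberg over 18282 genes and a threshold of 0.05, with 5 contrasts. Error values after ± are standard errors unless stated. A level bound ("at least") sets the dim group on each array to the weakest signal among detected probes, or to its own level if higher.

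The fit was tested on simulated data. The number of arrays limits the precision. The 10 genes and the gene and marker lists were chosen with earlier results of these data known. From the other lists, the text names the genes with the largest called changes per list and comparison, 1 of which is not reported here. The numbers of sh-SIRT1 and sh-Control arrays were taken to pair them within a treatment. The deviations of same-numbered arrays from their group means correlated with r between 0.363 and 0.541. Under RA some arrays of different numbers correlated as much, such as sh-SIRT1 array 5 with sh-Control array 3 (r = 0.519). Sh-SIRT1 array 3 with sh-Control array 4 had r = 0.482. The correlations under RA therefore do not settle which arrays are pairs. Alternatives were other scalings and background corrections, probe filters, all probes tested, slide and replicate number as blocks, only the groups of a comparison, leaving out each array and sh-Control RA array 1 alone. The block across treatments was added after seeing the data.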

Additional observations from a re-analysis of the deposited data

How the results depend on the processing

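Directions of the called differences of the 10 genes held under every alternative that tested the gene. The RA calls of Grhl2, Snai1, Snai2 and Zeb2 in both lines and of Cdh2 in sh-SIRT1 cells kept their side of the threshold in these fits. There were 26 such fits for Zeb2 and 27 for the others. They concern the probe that stands for the gene, and the other tested Zeb2 probe was not called for RA in sh-Control cells. With the replicate number as a block within a treatment, 3515 genes were called between the lines in vehicle (1576 without it), 3 of the 10 genes among them, and 1655 for the difference between the RA differences (657 without it), 1 of the 10 among them. Block fits across treatments, where the numbers share no more than a number (r between -0.21 and 0.22), left 2401 called for RA in sh-Control cells, against 8562. With slide as a fixed block 975 were called in vehicle and 92 for the difference between the RA differences. Normexp background correction gave 268 in vehicle, 4633 for RA in sh-Control cells, 1122 between the lines under RA (3706 otherwise), with 1 of the 10 genes in place of 3, and 22 for the difference between the RA differences. It left 5 mesenchymal genes, 4 EMT regulators, 2 epithelial genes and 1 cadherin partner called between the lines under RA, against 11, 11, 7 and 3. The count for the difference between the RA differences was 285 with no filter on dim probes and 1201 with all probes tested. Limited to probes well above background on all arrays, 1 of the 10 genes was called in vehicle. With sh-Control RA array 1 alone 2372 were called in vehicle (1 of the 10), 2030 between the lines under RA and 199 for the difference between the RA differences (1 of the 10).

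Leaving out 1 array at a time gave 739 to 2241 genes called in vehicle (0 to 2 of the 10), 7113 to 8706 for RA in sh-Control cells (4 to 6 of the 10), 9285 to 11126 for RA in sh-SIRT1 cells (5 to 6 of the 10), 2501 to 4286 between the lines under RA (2 to 4 of the 10) and 204 to 1885 for the difference between the RA differences (0 to 1 of the 10). Median scaling moved the median of all genes to -0.42 for RA in sh-SIRT1 and -0.29 in sh-Control cells, and the share of calls that were higher to 24.1% and 29.3%, from 39.4% and 42.0%. The same share moved to 72.4% in vehicle (51.1% otherwise) and to 29.7% for the difference between the RA differences (47.6% otherwise, 68.2% with normexp). The cause of these shifts was not tested. Dim probes limit Cldn4, Zeb2 in sh-Control vehicle cells, and the other probes of Grhl2, Cdh2, Vim and Zeb2.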
